A study of Mus musculus with 8 samples.

Results

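Genes of cholesterol and isoprenoid synthesis were followed in the livers of wild-type (WT) mice and of mice lacking both liver X receptors (LXRDKO). The 28 genes were taken by symbol from a list of the enzymes of the mevalonate pathway, its sterol and dolichol branches, their electron donors and a few sterol-regulated neighbours. All 28 were found among the 25010 genes of the deposited table, and all 28 passed the filter for testing. RNA-Seq was performed on left liver lobes, with 2 WT and 2 LXRDKO libraries, to ask how loss of LXR changes transcription. The LXRDKO mice carried deletions of LXRα (Nr1h3) and LXRβ (Nr1h2) in the whole body, so that every liver cell type lacked both receptors. Mice of both genotypes had a C57BL/6 background, were 8 wk old and were fasted for 4 to 6 h before they were killed, and the labels name no agonist. Values are normalized counts, that is, reads counted on a gene divided by 1 size factor per library.

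The mevalonate pathway builds sterols and isoprenoids from acetyl-CoA. Acetyl-CoA units are joined to HMG-CoA, which is reduced to mevalonate and turned into the isoprene unit isopentenyl diphosphate. Isoprene units are joined to farnesyl diphosphate, from which squalene, lanosterol and cholesterol are made on one branch and longer prenyl chains, such as dolichol, on others. In liver most of these genes are induced together by the transcription factor SREBP2 when membrane sterol is low, with NF-Y and Sp1 as promoter partners. LXRs respond to oxysterols, which form when sterol is abundant, and induce genes of sterol efflux and of fatty acid synthesis.

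Since SREBP2 and NF-Y act at promoters, the promoter windows of the genes were searched for their motifs. RefSeq windows of GRCm38.p6, from 250 bases before to 50 bases after a start site, were at hand for 23 of the 28 genes, and Fdps, Fdft1, Sqle, Cyb5r3 and Stard4 had none. On either strand, CCAAT, the box bound by NF-Y, was found in 20 of the 23 genes (87.0%), compared with 42.6% of 11167 tested genes and 41.1% of all 27025 genes with a window. At least 2 such boxes were found in 15 of the 23 genes (65.2%), compared with 16.2% of the tested genes. The 3 genes without the box were Acat2, Aacs and Por. CCCGCC, the core of the GC box bound by Sp factors, was found in 18 of the 23 genes (78.3%), compared with 64.2% of the tested genes. One spelling of the sterol regulatory element core, TCACNCCAC, was found in Hmgcs1 and in no other of the 23 genes, compared with 1.49% of the tested genes. In these windows 1 pair of matches of different motifs overlapped, in Hsd17b7. A match describes the letters and is not a measured binding site.

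The stretches that hold the NF-Y boxes are shown for 4 genes whose LXRDKO livers both exceeded both WT livers. They lie at chr5:4104712-4104736, minus strand, for Cyp51, at chr19:6067883-6067907, minus strand, for Tm7sf2, at chrX:72918402-72918515, plus strand, for Nsdhl, and at chr5:114444086-114444268, plus strand, for Mvk. Each is written 5′ to 3′ along the gene and ends before the RefSeq start site, with capitals marking CCAAT or its complement ATTGG.
Cyp51: ctgtccgccaCCAATctggtcctga
Tm7sf2: cccagcgctgATTGGctactgtgct
Nsdhl: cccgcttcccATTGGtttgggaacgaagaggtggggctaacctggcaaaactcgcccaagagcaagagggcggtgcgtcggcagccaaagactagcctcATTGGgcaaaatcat
Mvk: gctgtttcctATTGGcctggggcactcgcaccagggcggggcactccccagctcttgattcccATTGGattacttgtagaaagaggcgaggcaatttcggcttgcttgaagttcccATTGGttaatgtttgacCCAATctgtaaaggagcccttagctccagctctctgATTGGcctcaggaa

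Cyp51 and Tm7sf2 have 1 box each in these stretches, Nsdhl 2 and Mvk 5. For comparison, the stretches of 2 genes that were over 2-fold apart between the LXRDKO livers lie at chr13:119690104-119690320, plus strand, for Hmgcs1, and at chr10:76531533-76531557, plus strand, for Lss. Here capitals also mark the sterol element core of Hmgcs1.
Hmgcs1: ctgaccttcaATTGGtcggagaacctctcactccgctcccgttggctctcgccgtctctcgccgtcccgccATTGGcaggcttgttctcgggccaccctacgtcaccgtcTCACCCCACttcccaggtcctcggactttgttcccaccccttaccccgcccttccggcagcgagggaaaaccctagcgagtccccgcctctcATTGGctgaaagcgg
Lss: tgatgctctgATTGGccgagctcgc

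In these stretches Hmgcs1 has 3 boxes and Lss 1, so that boxes were found in genes of either pattern. The whole windows of Hmgcs1 and Nsdhl hold 4 boxes each, those not printed lying after the start site.

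**Figure D1:**
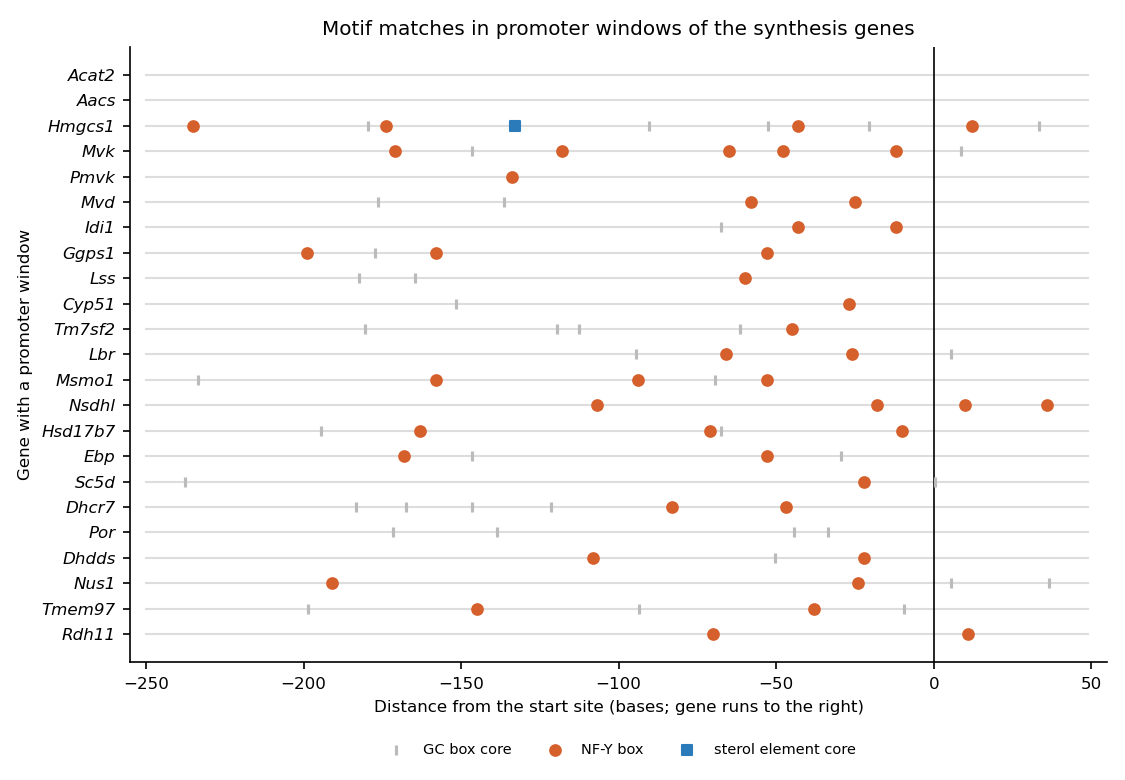
Positions of motif matches in the promoter windows of 23 genes, as distance in bases from the start site, with the windows of genes that have several start sites laid over each other. Orange circles are NF-Y boxes, the blue square is the sterol element core and grey ticks are GC box cores; 20 of the 23 genes have an NF-Y box within the 150 bases before a start site.

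Gene reads summed to 55772659 in the shallowest and 72842744 in the deepest liver, and each of the 28 genes had between 277 and 95273 reads in every liver. Nr1h3 had 5785 and 5322 normalized counts in WT against 1712 and 1826 in LXRDKO livers, and Nr1h2 had 2987 and 3110.0 against 925 and 1003. Both deleted receptors were lower in the LXRDKO livers but not at 0, with log2 fold changes of −1.65 for Nr1h3 and −1.66 for Nr1h2 (adjusted P = 0.0147 for each, limma). All 4 livers expressed the Y-linked gene Ddx3y, at 4242 to 4916 normalized counts. The 8 hepatocyte markers summed to between 6671191 and 7699615 normalized counts in WT and between 6430709 and 7026616 in LXRDKO livers. Most of each sum was Alb. DESeq2 called 2 of the 8 higher in LXRDKO, Hnf4a (adjusted P = 0.0115) and Tat (adjusted P = 0.00675), against 1.56% of all genes. Markers of some other cells also differed with genotype. The 6 Kupffer cell markers summed to at least 8331 in WT and at most 860.0 in LXRDKO livers, where Timd4 had 0 reads in replicate 2. DESeq2 called all 6 lower, against 2.03% of all genes. The 5 cholangiocyte markers summed to at most 3582 in WT and at least 4553 in LXRDKO livers. The 5 endothelial markers summed to between 8186 and 9182 in WT and between 5277 and 6901 in LXRDKO livers. Of the 5 cholangiocyte markers DESeq2 called 1, Epcam, higher, against 1.56% of all genes. Of the 5 endothelial markers it called 1, Kdr, lower, against 2.03% of all genes. The 5 stellate cell markers summed to between 6517 and 8773 in WT and between 8776 and 10038 in LXRDKO livers. All 5 had a higher mean log2 value in LXRDKO livers, where 50.9% of all genes tested had a lower one. DESeq2 called Reln alone, as higher (adjusted P = 0.032), 1 of 5 against 1.56% of all genes. The 5 lymphocyte and neutrophil markers summed to between 102 and 135 in WT and between 42.9 and 61.7 in LXRDKO livers. The neutrophil genes Ly6g and S100a8 did not pass the filter. The other 3 were lower with an unadjusted limma P value under 0.05, against 7.5% of all genes, and none was called. The 4 macrophage markers overlapped between genotypes, at 6200.4 to 7055 in WT and 4838 to 8212 in LXRDKO livers. The part of these cells in the results was not tested, and in whole liver fewer cells of a type and less RNA per cell cannot be told apart.

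In LXRDKO livers 22 of the 28 genes had a higher mean log2 value than in WT livers and 6 a lower one, where 50.9% of all genes tested had a lower one. The median log2 fold change was 0.26, compared with −0.005 over the 15578 genes tested. This median rested on 1 liver: leaving out LXRDKO replicate 2 gave −0.16 and leaving out LXRDKO replicate 1 gave 0.67. Single genes were tested by limma on log2(normalized count + 1), and P values were adjusted over all genes tested. Limma called 1 of the 28, Aacs, at an adjusted P value under 0.05, against 0.321% of all genes tested, and 9 had an unadjusted P value under 0.05, against 13.3% of all genes. DESeq2, the tool the authors used, was run on the reads recovered from the table and called 7. Cyp51, Nsdhl, Mvk and Tm7sf2 were called higher in LXRDKO, 4 of 28 against 1.56% of all genes. Aacs, Stard4 and Cyb5r3 were called lower, 3 of 28 against 2.03% of all genes. The quasi-likelihood test of edgeR called Aacs alone of the 28, and 49 of all 15578 genes tested. Both LXRDKO livers were above both WT livers in 6 of the 28 genes, against 21.7% of all genes, a share close to the background. They were below both WT livers in 4 of the 28, a share under the 23.0% of all genes. With 2 livers against 2, exact permutation of the livers gives no single gene a two-sided P value below 0.333, so that every call rests on a spread shared across genes.

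**Figure D2:**
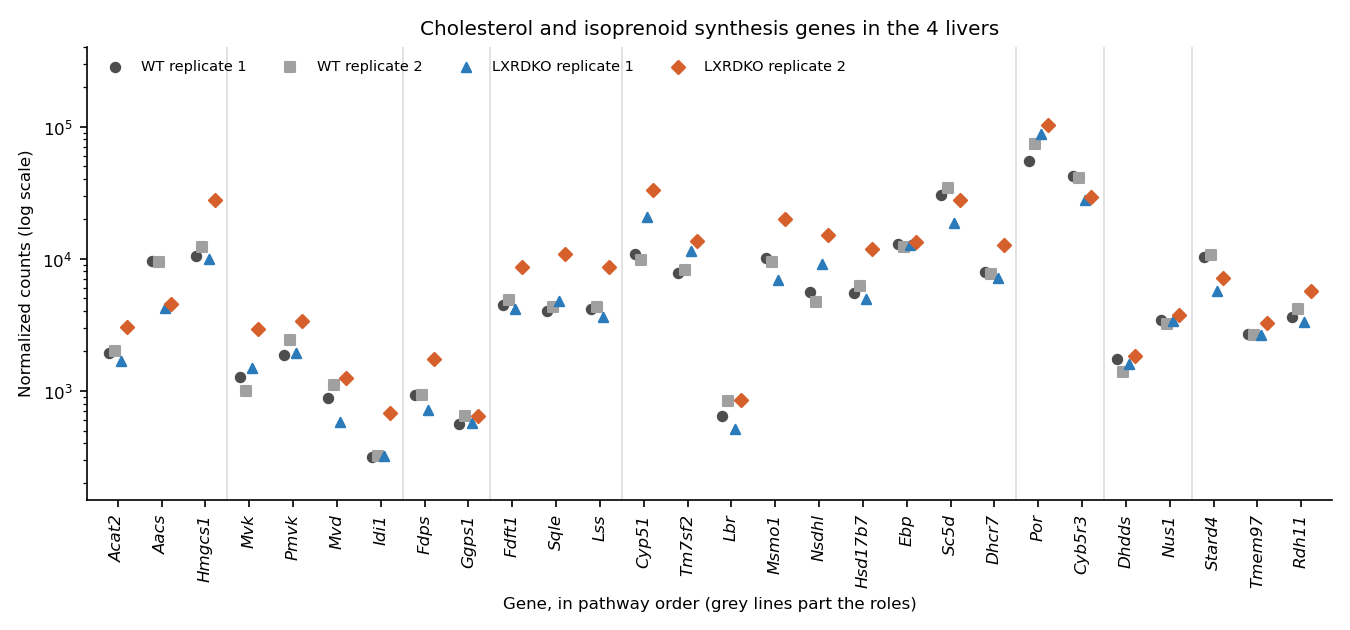
Normalized counts (log axis) of the 28 genes in each of the 4 livers, in pathway order, with 1 point per liver. LXRDKO replicate 2 (orange diamonds) is the highest of the 4 livers in 24 genes, and in Aacs, Stard4, Cyb5r3 and Sc5d both LXRDKO livers lie below both WT livers.

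The first steps lead to HMG-CoA. Aacs, which activates acetoacetate to acetoacetyl-CoA in the cytosol, lies on chromosome 5 from 125475814 to 125517410 of GRCm38. Its values were 9585 and 9471 normalized counts in WT against 4236 and 4555 in LXRDKO livers. The groups were far apart and the livers within each group close, at a log2 fold change of −1.12 with a standard error (SE) of 0.09 (limma adjusted P = 0.0254). The DESeq2 adjusted P value was 9.28e-15, and leaving out single livers kept the log2 fold change within −1.17 and −1.06. The limma call was lost without the variance trend and without either LXRDKO liver. Acat2, the cytosolic acetoacetyl-CoA thiolase, had 1923 and 2009 normalized counts in WT against 1693 and 3022 in LXRDKO livers. Hmgcs1, which makes HMG-CoA and lies on chromosome 13 from 119690379 to 119708260, had 10515 and 12159.8 in WT against 9956 and 27598 in LXRDKO livers. For both genes LXRDKO replicate 1 was below both WT livers and replicate 2 above them, so that the genotypes overlapped. The log2 fold change of Hmgcs1 was 0.55 (SE 0.45, limma adjusted P = 0.671).

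Of the 4 genes that carry mevalonate to the isoprene units, Mvk, the kinase that phosphorylates mevalonate, was the one that DESeq2 called. Mvk lies on chromosome 5 from 114444269 to 114460591 and was measured at 1265 and 992 normalized counts in WT against 1479 and 2954 in LXRDKO livers. Both LXRDKO livers were higher, although replicate 1 was close to WT replicate 1. Its log2 fold change was 0.90 (SE 0.33, limma adjusted P = 0.337, DESeq2 adjusted P = 0.0353) and was 0.40 without LXRDKO replicate 2. Pmvk, the next kinase, Mvd, the decarboxylase that yields isopentenyl diphosphate, and Idi1, the isomerase of that product, overlapped between genotypes. Their log2 fold changes were 0.26, −0.22 and 0.55, with adjusted limma P values from 0.581 to 0.858. Pmvk had 1876 and 2424 normalized counts in WT against 1922 and 3381 in LXRDKO livers, with replicate 2 the higher in both genotypes. Mvd had 887 and 1103 normalized counts in WT against 579 and 1248 in LXRDKO livers, so that the LXRDKO livers were the lowest and the highest of the 4. Idi1 had 316 and 322 in WT and 321 in LXRDKO replicate 1, but 676 in LXRDKO replicate 2. Of the exonic bases of Idi1, 45.4% lie in an exact match of 50 bases elsewhere in the genome, as do 31.0% for Acat2 and 8.86% for Fdps, so that their reads may be shared with copies. For the other 25 genes this share was at most 3.17%.

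Fdps, which makes farnesyl diphosphate, had 934 and 923 normalized counts in WT against 720.4 and 1743 in LXRDKO livers. Again the LXRDKO livers lay on either side of the WT livers. Ggps1, which extends the chain to geranylgeranyl diphosphate, hardly differed, with 560.0 and 647 in WT against 572 and 647 in LXRDKO livers and a log2 fold change of 0.02 (SE 0.14). Dhdds and Nus1, the subunits of the enzyme that starts the dolichol chain, had log2 fold changes of 0.13 and 0.11 (adjusted P = 0.779 and 0.695, limma).

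Squalene synthase (Fdft1), squalene epoxidase (Sqle) and lanosterol synthase (Lss) had log2 fold changes of 0.36, 0.78 and 0.41, and none passed limma or DESeq2. Sqle had 4013 and 4323 normalized counts in WT against 4745 and 10809 in LXRDKO livers, so that both LXRDKO livers were higher, the first by little. Fdft1 and Lss overlapped, with replicate 1 below and replicate 2 above both WT livers. Lss had 4146 and 4295 in WT against 3633 and 8602 in LXRDKO livers.

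The steps from lanosterol to cholesterol held 3 of the 4 genes that DESeq2 called higher. Cyp51, the cytochrome P450 that removes the 14α-methyl group of lanosterol, lies on chromosome 5 from 4081145 to 4104746. It had 10872 and 9733 normalized counts in WT against 20539 and 33162 in LXRDKO livers. Each LXRDKO liver was well above both WT livers, with a log2 fold change of 1.34 (SE 0.23, limma adjusted P = 0.117, DESeq2 adjusted P = 1.87e-07). Tm7sf2 encodes a sterol 14-reductase that acts on the product of Cyp51, and lies on chromosome 19 from 6062821 to 6068373. It had 7737 and 8233 in WT against 11362 and 13599 in LXRDKO livers, a log2 fold change of 0.64 (SE 0.12, limma adjusted P = 0.127, DESeq2 adjusted P = 0.00141). Here the LXRDKO livers were close to each other. Lbr, the lamin B receptor, which can catalyse the same reduction, overlapped between genotypes, with 641 and 833 in WT against 511 and 846 in LXRDKO livers. The difference in response between Tm7sf2 and Lbr was not tested.

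Nsdhl, a dehydrogenase that takes part in removing the 4-methyl groups, lies on chromosome X from 72918557 to 72958514. It had 5589 and 4718 normalized counts in WT against 9179 and 15164 in LXRDKO livers. Both LXRDKO livers were higher, with a log2 fold change of 1.20 (SE 0.24, limma adjusted P = 0.145, DESeq2 adjusted P = 2.1e-05). The 2 genes whose products work with Nsdhl in removing the 4-methyl groups overlapped between genotypes. Msmo1, the oxidase, on chromosome 8 from 64718139 to 64733792, had 10167 and 9355 in WT against 6889 and 19886 in LXRDKO livers. Hsd17b7, the ketoreductase, had 5517 and 6254 in WT against 4980.4 and 11812 in LXRDKO livers. For both, the LXRDKO livers enclosed the WT livers, with log2 fold changes of 0.26 and 0.38 and standard errors of 0.46 and 0.38.

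The late steps did not move in 1 direction. Ebp, the isomerase that shifts the ring double bond, had between 12298 and 13469 normalized counts in all 4 livers and a log2 fold change of 0.05 (SE 0.09). Sc5d, which introduces the next double bond, had 30233 and 34285 in WT against 18732 and 27684 in LXRDKO livers. Both LXRDKO livers were lower, but the log2 fold change of −0.50 (SE 0.20) did not pass (limma adjusted P = 0.375, DESeq2 adjusted P = 0.256). Dhcr7, which reduces the double bond placed by Ebp, had 7959 and 7592 in WT against 7092 and 12744 in LXRDKO livers and overlapped between genotypes.

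Several of these enzymes draw electrons from Por or from cytochrome b5, which Cyb5r3 reduces. Por, the reductase that serves Cyp51, Sqle and the drug-metabolizing P450 enzymes, is on chromosome 5 from 135670033 to 135735326. It had 54673 and 73893 normalized counts in WT against 87824 and 102130.2 in LXRDKO livers, a log2 fold change of 0.58 (SE 0.19, limma adjusted P = 0.304, DESeq2 adjusted P = 0.0594). Both LXRDKO livers were higher, but the WT livers also differed, by 0.43 on the log2 scale. Cyb5r3, on chromosome 15 from 83153494 to 83172592, had 42297 and 40497 in WT against 27730.5 and 29054 in LXRDKO livers. The livers of each group were close to each other, with a log2 fold change of −0.54 (SE 0.10, limma adjusted P = 0.134, DESeq2 adjusted P = 0.00096). Per kilobase of exon, Por had 15987 normalized counts in WT livers, Cyb5r3 9632, Sc5d 6630, Ebp 5467 and Cyp51 2334. The lowest levels per kilobase were those of Lbr (155), Ggps1 (128) and Idi1 (91.0).

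Stard4, a soluble carrier that moves cholesterol between membranes, had 10382 and 10569 normalized counts in WT against 5701 and 7099 in LXRDKO livers. Both LXRDKO livers were lower, with a log2 fold change of −0.72 (SE 0.13, limma adjusted P = 0.12, DESeq2 adjusted P = 0.000599). Tmem97, a membrane protein of sterol handling, and Rdh11, a retinal reductase, overlapped between genotypes, with log2 fold changes of 0.13 and 0.16.

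**Figure D3:**
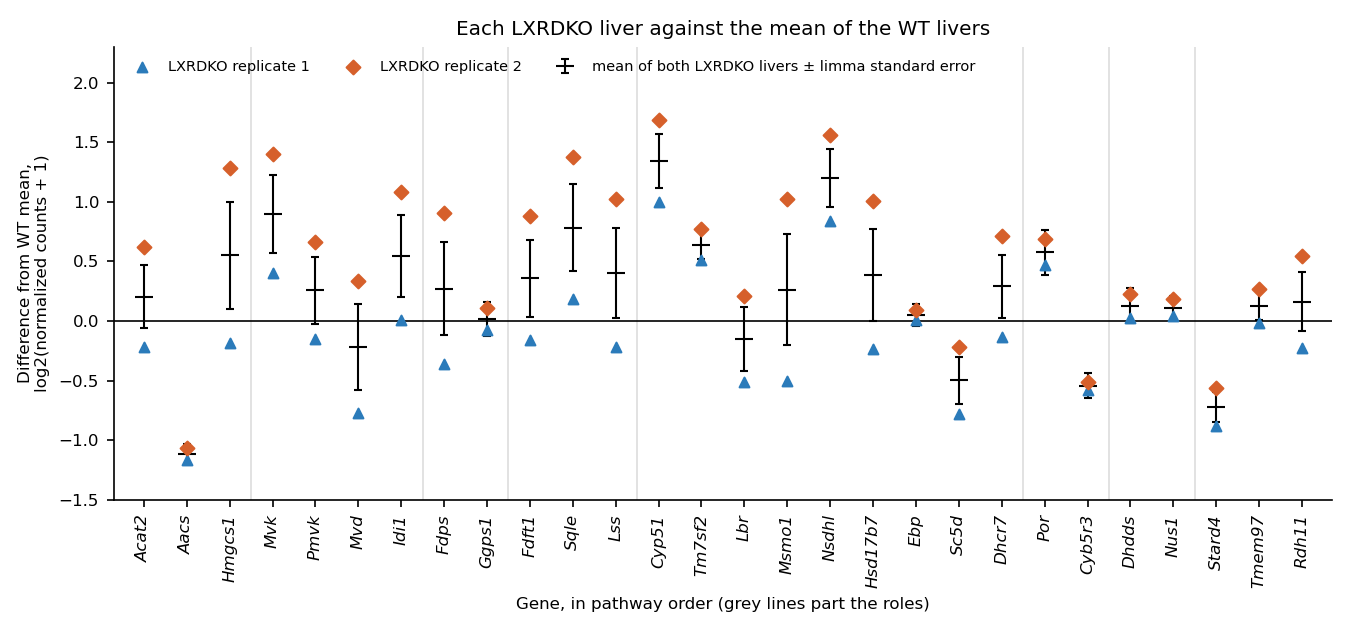
Difference of each LXRDKO liver from the mean of the 2 WT livers, on the scale of log2(normalized count + 1), in pathway order. Triangles are LXRDKO replicate 1, diamonds LXRDKO replicate 2, and black dashes the log2 fold change with its limma standard error; the diamond lies above the triangle for all 28 genes.

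The 2 LXRDKO livers were then compared with each other. All 28 genes were higher in replicate 2 than in replicate 1, whereas 50.3% of all genes tested were. The median difference was 0.75 on the log2 scale over the 28 genes, compared with 0.002 over all genes tested. Differences ran from 0.07 for Cyb5r3 to 1.53 for Msmo1. Replicate 2 was at least 2-fold above replicate 1 in 9 of the 28 genes, against 2.34% of all genes tested, and in 64 of the 8737 genes with a mean at or above that of the lowest of the 28 (409 normalized counts). The 9 genes were Hmgcs1, Mvd, Idi1, Fdps, Fdft1, Sqle, Lss, Msmo1 and Hsd17b7, and Mvk lay just under the limit. Msmo1, Hmgcs1 and Fdps differed most, by 2.89-fold, 2.77-fold and 2.42-fold. Replicate 2 was the highest of the 4 livers in 24 of the 28 genes, against 25.5% of all genes tested. Replicate 1 was below both WT livers in 16 genes, against 35.9% of all genes tested, and above both in 6, against 35.0%. These 6 were Cyp51, Nsdhl, Mvk, Tm7sf2, Por and Sqle.

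The WT livers differed in these genes about as much as in other genes of like level. The median difference of replicate 2 from replicate 1 was 0.04 on the log2 scale, 16 of the 28 genes were higher in replicate 2, and none of the 28 was 2-fold apart, against 6.28% of all genes tested and 132 of the 8737 genes at or above the lowest mean of the 28. Regardless of sign, the median difference was 0.119 for the 28 genes and 0.122 for those 8737. Por, Lbr and Pmvk differed most, by 0.43, 0.38 and 0.37. With single livers on each side these differences have no test. The differences within WT and within LXRDKO had a Pearson correlation of 0.111 across the 28 genes, which share the same 4 libraries and are not independent.

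**Figure D4:**
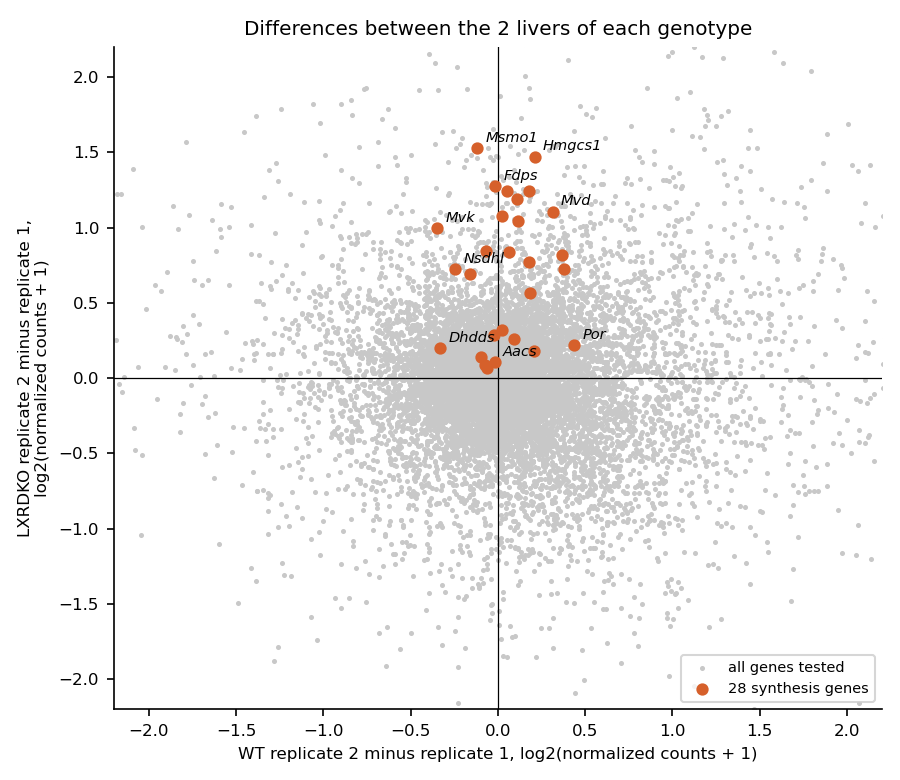
Difference of replicate 2 from replicate 1 in WT (x axis) and in LXRDKO livers (y axis), on the scale of log2(normalized count + 1), for all genes tested (grey) and the 28 synthesis genes (orange). The 28 genes spread upwards from 0.07 to 1.53 on the y axis and stay between −0.35 and 0.43 on the x axis; 150 genes tested lie outside the axes.

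Values that moved with LXRDKO replicate 2 are given here, and their part in the difference was not tested. Among genes of sterol control and neighbouring steps, singled out after their values were seen, Insig1, which retains SREBP in the endoplasmic reticulum, had 4167 normalized counts in LXRDKO replicate 1 and 9598 in replicate 2, and Srebf2, which encodes SREBP2, 3251 and 5790. These genes are known targets of SREBP2. In the WT livers Insig1 had 12462 and 14165, and Srebf2 4302 and 4523. In both LXRDKO livers Insig1 was below both WT livers, while LXRDKO replicate 2 was above both WT livers in 24 of the 28 genes, against 35.5% of all genes tested. The 8 genes that answer to fasting had a median difference of replicate 2 from replicate 1 of 0.82 in WT and 0.94 in LXRDKO on the log2 scale. In each genotype 4 of the 8 were at least 2-fold higher in replicate 2. Of the 15578 genes tested, 659 were so in WT and 365 in LXRDKO. Igfbp1, Pdk4 and Fgf21 were among the 4 in both genotypes, and G6pc in LXRDKO alone. G6pc had 17336 and 21902 in WT against 15403 and 36006 in LXRDKO livers. Pdk4 had 212 and 525 in WT against 115 and 731 in LXRDKO livers, and Igfbp1 had 1874 and 4606 against 1831 and 4694. The 12 clock genes summed to 58359.8 in LXRDKO replicate 1 and 49011 in replicate 2. Among them Dbp had 11917 and 7296 and Nr1d1 5385 and 3377 in LXRDKO replicates 1 and 2, while Arntl had 134 and 204. Of the 11 clock genes that passed the filter, 4 were higher in LXRDKO replicate 2. The median difference of these 11 between the LXRDKO livers was −0.06 on the log2 scale. The 4 macrophage markers summed to 8212 in LXRDKO replicate 1 and 4838 in replicate 2, the 5 stellate cell markers to 8776 and 10038, and the 8 hepatocyte markers to 7026616 and 6430709.

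Genes around the pathway were compared between genotypes in the same fit. Of 26 genes of sterol control and neighbouring steps, 25 passed the filter, 20 of them lower in LXRDKO livers, against 50.9% of all genes tested, and 5 higher, and their median log2 fold change was −0.20. An unadjusted limma P value under 0.05 was found for 10 of the 25, all lower, against 7.5% of all genes tested that were lower at this threshold. Limma called Srebf1, which encodes SREBP1 and is a direct LXR target, lower by a log2 fold change of −2.51 (limma adjusted P = 0.0407). DESeq2 called Srebf1 and Soat2, which esterifies cholesterol, both lower, 2 of 25 against 2.03% of all genes. Soat2 had 2537 and 3226 normalized counts in WT against 1965 and 1766 in LXRDKO livers (log2 fold change −0.62, SE 0.14, limma adjusted P = 0.178, DESeq2 adjusted P = 0.0172). Insig1 had a log2 fold change of −1.07 (SE 0.37, limma adjusted P = 0.318). Srebf2 had a log2 fold change of −0.02 (SE 0.26). Of 17 genes that use isoprenoids, such as prenyltransferases and enzymes of ubiquinone and dolichol, none was called by limma, edgeR or DESeq2, and none had an unadjusted limma P value under 0.05. Their log2 fold changes ran from −0.24 to 0.10 with a median of −0.04. The NF-Y subunit genes Nfya, Nfyb and Nfyc had log2 fold changes of 0.28, −0.22 and −0.04, and none was called. Their unadjusted limma P values were 0.079, 0.0611 and 0.78 and their adjusted P values between 0.399 and 0.938. Chromatin accessibility was not analysed here.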

How the data were processed

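RNA-Seq libraries of 2 WT and 2 LXRDKO livers were used, grouped by their sample titles. The authors captured polyadenylated RNA with a stranded kit, sequenced single-end reads, aligned them to mm10 with STAR 2.6.0c and normalized them with DESeq2. The read counter and the annotation release are not given in the sources used here. The deposited values are a signal, reads per gene divided by the DESeq2 size factor of the library, for 25010 genes in 4 columns. Reads were recovered by dividing by the worth of 1 read, and 100% of values came out whole within 0.02 reads. Size factors computed by DESeq2 from these reads equalled the deposited ones within 0.000355%.

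Members and gene lists were chosen with earlier results of these data known. All 28 members are accounted for. Values per liver are given for genes called by limma or DESeq2 or with an unadjusted P value under 0.05, for the 3 largest differences between livers of a genotype and for examples of the rest. Genes of other lists were named where called or among the 3 largest fold changes with an unadjusted P value under 0.05, and the values of some listed genes are not reported. Log2(normalized count + 1) was tested with limma 3.58.1 in R 4.3.3, with empirical Bayes moderation and a variance trend, on the 15578 genes whose mean reached 10 normalized counts, with Benjamini-Hochberg adjustment. Recovered reads were also fitted with DESeq2 1.42.0 and edgeR 4.0.16 (quasi-likelihood). All 3 fits were tested on simulated data. The labels number the livers of a group but do not say that they came from separate mice, so that P values measure only the spread between these samples, which may be technical. Positions and exon lengths came from GENCODE M21 on GRCm38, the assembly of mm10, to which 24987 identifiers matched. Exons were compared with the chromosomes by exact matches of 50 bases with blastn. Promoter windows came from RefSeq (GRCm38.p6) and were matched by symbol. A gene was counted as holding a motif where any of its windows did. ATAC-Seq samples were not analysed here.

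Alternatives were other pseudocounts, filters, scalings, moderation, a replicate block, the count tests, a threshold of 0.10 and leaving out each liver.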

Additional observations from a re-analysis of the deposited data

How the results depend on the processing

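Limma called 50 of all genes tested, 25 where means under 50 normalized counts were left out, 1 without the variance trend, 138 at a threshold of 0.10 and from 2 (without LXRDKO replicate 1) to 265 (without WT replicate 1) when a liver was left out, with 4 without LXRDKO replicate 2 and 157 without WT replicate 2, while DESeq2 called 567. Of the 28 synthesis genes limma called 1 (Aacs), 0 without the trend and 0 or 1 with a liver left out, and DESeq2 called 7. The Aacs call was lost without the trend, without LXRDKO replicate 1 and without LXRDKO replicate 2. Without the trend limma gave 6 of the 28 an unadjusted P value under 0.05, compared with 9 in the main fit. The share of all genes under 0.05 without the trend was not computed. The replicate number as a block gave 90 calls over all genes and kept 1 call among the 28. The labels do not say that the numbers pair the livers, and the deviations of same-numbered livers had a correlation of 0.00312 across genes, so that the block shows only how the count moves. Both LXRDKO livers exceeded both WT livers in 6 genes, against 21.7% of all genes tested, and in 10 when libraries were scaled to their totals. The share of all genes under that scaling was not computed. With a liver left out, the remaining LXRDKO livers exceeded the remaining WT livers in 6 to 24 genes, a condition that is easier to meet. The 24, without LXRDKO replicate 1, are the genes with LXRDKO replicate 2 alone above both WT livers, against 35.5% of all genes tested.

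The median log2 fold change of the 28 genes ran from −0.16, without LXRDKO replicate 2, to 0.67, without LXRDKO replicate 1. Leaving out LXRDKO replicate 2 changed the sign of 12 genes, leaving out LXRDKO replicate 1 that of 2, WT replicate 1 that of 1 and WT replicate 2 that of 2. Over the 4 livers left out, the log2 fold changes of the genes that changed sign ran as follows: Acat2 −0.21 to 0.62, Dhcr7 −0.13 to 0.71, Dhdds −0.037 to 0.29, Fdft1 −0.16 to 0.88, Fdps −0.37 to 0.91, Ggps1 −0.087 to 0.12, Hmgcs1 −0.18 to 1.29, Hsd17b7 −0.24 to 1.01, Lbr −0.52 to 0.21, Lss −0.22 to 1.03, Msmo1 −0.50 to 1.03, Mvd −0.77 to 0.33, Pmvk −0.15 to 0.66, Rdh11 −0.22 to 0.55 and Tmem97 −0.019 to 0.27. Of the genes that kept their sign, Cyp51 ran from 1.00 to 1.69, Nsdhl 0.84 to 1.56, Mvk 0.40 to 1.40, Sqle 0.19 to 1.38, Idi1 0.0091 to 1.08, Por 0.36 to 0.79, Tm7sf2 0.51 to 0.77, Nus1 0.043 to 0.18, Ebp 0.0085 to 0.094, Sc5d −0.78 to −0.22 and Stard4 −0.88 to −0.56. Pseudocounts, filters, scalings, moderation, block and count tests changed the sign of none of the 28. With 2 livers per genotype, which of the LXRDKO livers is typical of the genotype cannot be told from these data. Idi1 had the lowest depth, 277 reads in 1 liver, and differences of a few percent between livers are not resolved at such counts.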
